A study of Mus musculus with 6 samples.

Results

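The genes described here encode the machinery of the DNA replication fork: the partners of the replicative helicase, 2 subunits of the origin recognition complex, the clamp loader, the replicative polymerases, the single-strand binding protein RPA, nucleotide synthesis, Okazaki fragment processing, fork protection and chromatin assembly. Members were chosen by name, 36 genes in all, and all 36 were found among the 22274 genes of the deposited table and passed the filter on low counts. Messenger RNA had been sequenced from whole mouse testes at day 9, in 3 control libraries and in 3 libraries of a conditional Dcaf2 knockout (cKO). In the knockout, floxed Dcaf2 alleles (Dcaf2fl/fl) met Stra8-Cre, a Cre recombinase driven by the promoter of Stra8, a gene that germ cells switch on as they move to differentiation and meiosis. The sources used here do not give the alleles that the controls carry, or whether a library is 1 animal or a pool. P-values therefore measure the spread between these libraries, which may be partly technical.

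A replication origin is marked by the origin recognition complex. CDC45 and the GINS ring then join the MCM ring to form the active helicase. Polymerase alpha with primase lays down primers, the RFC clamp loader places the PCNA clamp, polymerases epsilon and delta extend the new strands, FEN1 and LIG1 finish Okazaki fragments, and the CHAF1 complex rebuilds chromatin behind the fork. DCAF2 is a substrate receptor of the CRL4 ubiquitin ligase and recognises proteins bound to PCNA on chromatin. In the young testis both spermatogonia and Sertoli cells divide, so replication transcripts can come from germ cells and from somatic cells.

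Of the 36 members, 19 fell in the knockout testes and none passed as higher (edgeR quasi-likelihood test, Benjamini-Hochberg adjusted p under 0.05 over 14424 tested genes). Of all tested genes 13.9% were lower and 11.1% higher by the same rule. The median log2 fold change, knockout against control, was -0.42 over the members and 0.03 over all tested genes. At an unadjusted p under 0.05, 23 members were lower and 1, Pola1, was higher. Over all 14424 tested genes, 5636 met that level, in either direction. DESeq2 called 21 members lower and 0 higher, beside 2274 and 1713 of all tested genes. With limma-voom 19 members were lower and 0 higher, beside 1934 and 1664 of all tested genes. The knockout libraries lay wholly below the controls for 21 members and wholly above them for 1, where 22.1% and 22.5% of all tested genes did so. Each role except histone supply and chromatin assembly held at least 1 member that fell. The calls on 7 members, Cdc45, Orc1, Rfc4, Prim2, Pold1, Rpa2 and Fen1, were kept in each of the 6 fits that left out 1 library. Without knockout library 2 no other member was called, and without control library 1 the count was 24. In those 2 fits 903 and 2863 of all tested genes were lower. With the trend of fold change on transcript length removed, 22 members were lower and 0 higher, beside 19.5% and 14.3% of all tested genes.

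**Figure D1:**
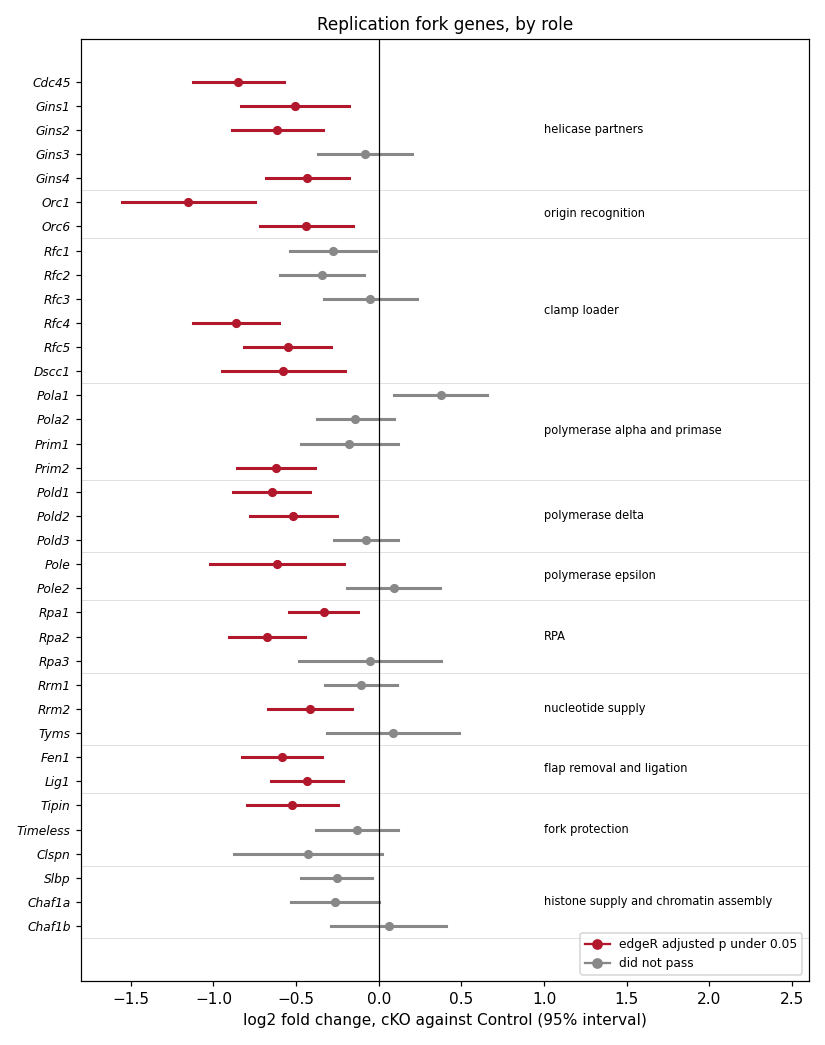
Log2 fold change of each of the 36 genes, knockout against control (x axis), with its 95% interval; genes are grouped by role and colour marks an edgeR adjusted p under 0.05. The 19 genes that passed all lie below 0, from Orc1 at -1.15 to Rpa1 at -0.33, and Pola1 lies farthest above 0, at 0.38.

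These values are shares of each library's messenger RNA. In whole testes, fewer cells of a type and less RNA per cell cannot be told apart. Germ-cell transcripts were a smaller share in the knockouts: all 18 pan-germ-cell markers fell, and their summed level was 1633 to 2174 CPM (library-size-scaled counts, with trimmed mean of M values factors) in controls and 636 to 794 CPM in knockouts. The median log2 fold change of that list was -1.40, against -0.42 for the replication members. The fall was not the same over all germ-cell lists. Of 14 markers of undifferentiated spermatogonia 6 were lower and 2 higher. Their sums were 366 to 507 CPM in controls and 271 to 320.5 CPM in knockouts. Of 9 markers of differentiating spermatogonia 8 were lower and 1, Ccnd2, higher. These sums overlapped, at 606 to 755 against 598 to 669 CPM, but Ccnd2 made up most of the knockout sum. Ccnd2 alone had 306.7 ± 38.07 CPM in controls and 523.2 ± 18.65 CPM in knockouts. The median log2 fold change of the differentiating list was -2.08. All 12 tested meiotic prophase markers were lower. Summed markers of Sertoli cells, of which 7 of 15 were higher, ran from 4707 to 6586 CPM in controls and from 6553 to 7438 CPM in knockouts. Further somatic lists were fully apart. Interstitial stroma was at 4848 to 5579 against 7325 to 7488 CPM (4 of 7 higher) and Leydig cells at 642 to 1176 against 1282 to 1305 CPM (2 of 8 higher). Endothelial cells were at 188 to 217 against 261 to 292 CPM (4 of 6 higher) and macrophages at 88.1 to 106 against 123 to 142 CPM (2 of 7 higher). Peritubular myoid cells were apart by little, at 1507 to 1550 against 1564 to 1617 CPM, and 0 of 6 markers passed. The median log2 fold change of the myoid list was 0.04, with 3 of 6 markers lower by sign. Control library 1 stood apart from controls 2 and 3 in several lists: pan-germ-cell markers were at 1633 against 2174 and 2134 CPM, meiotic prophase markers at 530 against 941 and 847 CPM, Leydig markers at 1176 against 649 and 642 CPM, and Sertoli markers at 6586 against 4952 and 4707 CPM. Erythroid markers, none of whose 5 tested genes passed or had an unadjusted p under 0.05, were at 659 against 270.5 and 166.5 CPM. Of 10 general proliferation markers 4 fell, Ccnb1, Aurkb, Bub1 and Cenpa, named after their values were seen. Their list summed to 1471 to 1773 CPM in controls and 1237 to 1606 CPM in knockouts, and Mki67, a marker of cycling cells, had 357 ± 100.2 and 404 ± 62.6 CPM (mean ± SD, n = 3 each; log2 fold change 0.18, edgeR adjusted p = 0.524). No marker of these lists was at 0 in all libraries. Their part in the member differences was not tested.

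With libraries scaled to the pan-germ-cell list instead, the direction turned. All 18 genes of that list were lower in the main fit, so this scaling by its making moves log2 fold changes up. It therefore cannot test the direction of the members. The median of all genes moved from 0.03 to 1.50 and that of the members from -0.42 to 1.06. Under that scaling 35 members were higher and 0 lower, where 92.9% of all tested genes were higher and 0.659% lower. The member that did not pass was Orc1, at 0.35 (edgeR adjusted p = 0.117). All directions given below are relative to the whole library.

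Library totals ran from 15407007 to 18372964 counts, and a member had between 98 and 5118 counts in a library. Dtl, the current symbol of Dcaf2, was at 42.6, 50.3 and 77.4 CPM in controls 1, 2 and 3, against 41.7, 43.8 and 51.5 CPM in the knockouts. The groups overlapped (log2 fold change -0.31 with SE 0.202 and, by edgeR, adjusted p = 0.281). Leaving out control library 1 gave -0.51 (edgeR adjusted p = 0.0321) and leaving out control library 3 gave -0.025. A whole-gene count includes reads outside the deleted part and from cells without Cre, so Dtl does not settle the labels. Among the knockouts, library 3 stood highest for 32 of the 36 members, while it was the highest of the 3 for 38.6% of all tested genes. Library 1 was the lowest knockout for 23 members. The median member lay at -0.45, -0.38 and -0.25 in knockout libraries 1, 2 and 3, as log2 CPM relative to the control mean. Knockout library 3 also had the highest sum of pan-germ-cell markers among the knockouts (794 CPM, against 694 and 636) and of proliferation markers (1606 CPM, against 1237 and 1466). The part of either in the member levels was not tested.

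**Figure D2:**
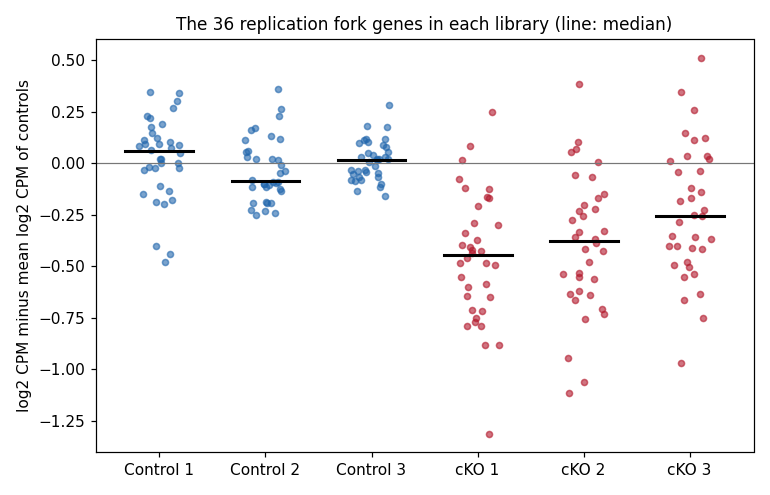
Each point is 1 of the 36 genes in 1 library, as log2 CPM relative to the control mean of that gene (y axis), and the line is the median. The control medians lie between -0.09 and 0.06 and the knockout medians between -0.45 and -0.25.

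Promoters are shown because many S-phase genes share a described class of regulators, the E2F factors, which bind close to the start of transcription. RefSeq windows on GRCm38.p6, from 250 bases before to 50 bases after the gene start, were found for 28 of the 36 members. They were searched on both strands for TTTCCCGC, TTTCGCGC, TTTGCCGC and TTTGGCGC, letters of an E2F site; no such match overlapped a CCAAT match. Some genes, among them Lig1, Fen1 and Pold2, have more than 1 window. A gene was counted if any of its windows held a match, so such genes had more chances. At least 1 match was found in 9 of 28 members (32.1%), in 4.57% of 11234 tested genes with a window and in 2.61% of all 27025 genes with one. Among members that fell, 3 of 12 held a match (Orc1, Lig1 and Pold1), and among those that did not pass, 6 of 16 did (Clspn, Gins3, Pola1, Pold3, Pole2 and Rfc3). The CCAAT box, the letters CCAAT on either strand, was in 17 of 28 members (60.7%), against 43.0% of tested genes; it was in 7 of 12 members that fell and 10 of 16 that did not pass. A match is a description of letters, and no match says only that these letters are not in the windows searched. For the 4 members with a match before the gene start, the 150 bases before the start follow, 5′ to 3′ on the gene's strand, with the E2F match (on either strand) in capitals. They are the member that fell furthest (Orc1, chr4:108579304-108579453, plus strand), the member with the highest fold change (Pola1, chrX:93632156-93632305, minus strand), and 2 with values close to 0 (Gins3, chr8:95633409-95633558, plus strand; Rfc3, chr5:151651209-151651358, minus strand).
Orc1: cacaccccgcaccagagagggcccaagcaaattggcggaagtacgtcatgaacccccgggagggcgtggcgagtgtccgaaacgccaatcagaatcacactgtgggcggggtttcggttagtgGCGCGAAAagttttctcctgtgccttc
Pola1: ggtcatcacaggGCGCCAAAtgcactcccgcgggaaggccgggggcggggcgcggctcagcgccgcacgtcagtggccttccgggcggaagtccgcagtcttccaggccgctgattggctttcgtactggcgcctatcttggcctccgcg
Gins3: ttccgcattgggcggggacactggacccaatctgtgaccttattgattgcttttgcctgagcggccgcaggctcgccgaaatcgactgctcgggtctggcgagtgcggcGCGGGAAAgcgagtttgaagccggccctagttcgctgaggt
Rfc3: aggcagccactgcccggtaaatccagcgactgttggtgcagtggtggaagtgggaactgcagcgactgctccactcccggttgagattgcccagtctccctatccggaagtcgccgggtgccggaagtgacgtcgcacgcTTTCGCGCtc

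Both origin recognition subunits on the list fell. Orc1, the largest subunit, whose product is regulated through the cell cycle, was at 28.8, 41.1 and 46.2 CPM in controls 1, 2 and 3, against 15.3, 17.5 and 19.4 CPM in the knockouts. The groups did not overlap, and control library 1 was the lowest control. Orc1 fell 2.22-fold (log2 fold change -1.15 with SE 0.179 and, by edgeR, adjusted p = 0.00331), the largest change of the 36 members. Orc6, a small subunit, was at 61.3, 47.3 and 45.7 CPM in controls and at 36.5, 37.9 and 39.5 CPM in knockouts, again without overlap. It fell 1.35-fold (edgeR adjusted p = 0.0323), a call lost without any 1 of the knockout libraries (log2 fold changes -0.41, -0.43 and -0.47; adjusted p = 0.126, 0.114 and 0.0827). Orc6 shares 6.93% of its annotated exon bases with Vps35 on the other strand. Of the other 4 subunits, Orc2 to Orc5, none passed with edgeR and 0 of 4 had an unadjusted p under 0.05. Orc2 and Orc3, the 2 with the smallest p, had log2 fold changes of -0.20 and -0.11 and also did not pass with DESeq2 or limma-voom; Orc2 passed without control library 1 (-0.28, edgeR adjusted p = 0.0119).

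Helicase partners fell in 4 of 5 cases. Cdc45, part of the active helicase, was at 50.6, 56.7 and 56.7 CPM in controls 1, 2 and 3, against 29.7, 26.2 and 35.2 CPM in the knockouts. Its groups were well apart, and it fell 1.80-fold (log2 fold change -0.85 with SE 0.122 and, by edgeR, adjusted p = 0.00251). The GINS ring holds 1 copy each of the products of Gins1, Gins2, Gins3 and Gins4. Gins2 was at 44.8, 38.6 and 40.9 CPM in controls and at 23.9, 26.1 and 31.3 CPM in knockouts and fell 1.53-fold (edgeR adjusted p = 0.00846). Gins1 fell from 14.9 ± 1.65 to 10.5 ± 0.927 CPM and Gins4 from 41.8 ± 5.29 to 31.0 ± 0.648 CPM (edgeR adjusted p = 0.0328 and 0.0230). Gins3 is the subunit that did not pass: its controls were at 14.5, 14.8 and 14.1 CPM and its knockouts at 13.7, 12.4 and 14.8 CPM, so the groups overlapped, and the 95% interval of its log2 fold change ran from -0.37 to 0.20.

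Without knockout library 2 the call on Gins2 was lost by a small margin (log2 fold change -0.58, edgeR adjusted p = 0.0510). Gins1 lost its call without control library 3 or knockout library 1, 2 or 3 (log2 fold changes -0.46, -0.44, -0.56 and -0.51; adjusted p = 0.0790 to 0.131) and with the trend on transcript length removed (-0.35, adjusted p = 0.0630). Gins4 lost its call without the same libraries (-0.43, -0.41, -0.44 and -0.44; adjusted p = 0.0752 to 0.0959). Gins2 shares 67.3% of its exon bases with Gse1 on the other strand, and Cdc45 5.96% with Ufd1. Whether the counting used strand is not given, so how reads of the shared bases were assigned is not known. The level of Gins2 is therefore uncertain.

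The clamp loader held both called and uncalled subunits. The RFC subunits form 1 complex that opens PCNA, and DSCC1 belongs to an alternative loader that acts in sister chromatid cohesion. Rfc4 was at 42.1, 34.5 and 41.8 CPM in controls and at 21.3, 20.4 and 23.3 CPM in knockouts. Every knockout library lay well below the lowest control, and Rfc4 fell 1.82-fold (log2 fold change -0.86 with SE 0.116 and, by edgeR, adjusted p = 0.00199, the smallest of the 36). Rfc5 fell from 53.1 ± 3.50 to 36.2 ± 4.93 CPM (edgeR adjusted p = 0.0108) and Dscc1 from 10.4 ± 1.37 to 6.94 ± 0.639 CPM (adjusted p = 0.0331), both without overlap of the groups. Rfc5 lost its call without control library 3 or knockout library 1 or 2 (log2 fold changes -0.50, -0.46 and -0.54; adjusted p = 0.0528 to 0.0587). Dscc1 lost its call without control library 3 or any 1 knockout library (-0.54, -0.65, -0.54 and -0.53; adjusted p = 0.0726 to 0.123). Rfc4 shares 12.7% of its exon bases with Eif4a2 and Rfc5 10.7% with Wsb2, each on the other strand.

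Rfc2 also had its groups apart, at 68.9, 55.4 and 57.7 CPM in controls and 44.7, 47.0 and 51.6 CPM in knockouts, but did not pass (log2 fold change -0.34, 95% interval -0.60 to -0.092, edgeR adjusted p = 0.0514). Rfc2 met the threshold without control library 1 or 2 (-0.27 and -0.42; adjusted p = 0.0374 and 0.0200), with DESeq2 (-0.36, adjusted p = 0.0263) and with the length trend removed (-0.53, adjusted p = 0.0183). RLE scaling, total-count scaling, no filter and the CPM filter also gave a call on Rfc2 (adjusted p = 0.0395, 0.0302, 0.0470 and 0.0488). Rfc1, the large subunit, had overlapping groups, at 151, 194 and 175 CPM in controls and 131, 147 and 152 CPM in knockouts (-0.28, edgeR adjusted p = 0.108). Without control library 1, the lowest control, Rfc1 passed (-0.39, adjusted p = 0.00642). It also passed on all 6 libraries with total-count scaling or with the length trend removed (-0.34 and -0.35; adjusted p = 0.0481 and 0.0113). Rfc3 had 31.7 ± 2.21 and 30.6 ± 4.28 CPM (95% interval of the log2 fold change -0.33 to 0.23) and was at 0.060 without knockout library 1.

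The 3 replicative polymerases each had a subunit that fell and a subunit that did not pass. In polymerase alpha with primase, Prim2, the large primase subunit, was at 47.4, 45.7 and 52.5 CPM in controls and at 28.4, 33.1 and 33.0 CPM in knockouts. It fell 1.54-fold with its groups apart (log2 fold change -0.62 with SE 0.104 and, by edgeR, adjusted p = 0.00431). Prim1, the catalytic primase subunit, had 41.9 ± 3.70 and 37.1 ± 5.81 CPM and Pola2, the accessory subunit, 55.5 ± 3.12 and 50.3 ± 5.12 CPM, with overlapping groups (edgeR adjusted p = 0.342 and 0.344). Pola1, the catalytic polymerase subunit, was the 1 member of the 36 whose knockouts all lay above the controls, at 38.1, 50.5 and 41.5 CPM in controls and 51.2, 56.1 and 61.4 CPM in knockouts. Its log2 fold change of 0.38 (95% interval 0.092 to 0.66) did not pass (edgeR adjusted p = 0.0560), and it passed without control library 2, the highest control (0.49, adjusted p = 0.0132).

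Polymerase delta, the lagging-strand enzyme, had 2 of 3 listed subunits lower. Pold1, which encodes its catalytic subunit, was at 115, 109.7 and 126 CPM in controls and at 71.3, 70.2 and 82.4 CPM in knockouts. It fell 1.57-fold without overlap (log2 fold change -0.65 with SE 0.103 and, by edgeR, adjusted p = 0.00369). Pold2 fell from 44.4 ± 6.33 to 31.0 ± 0.816 CPM (edgeR adjusted p = 0.0137), a call lost without any 1 knockout library (log2 fold changes -0.49, -0.53 and -0.52; adjusted p = 0.0674, 0.0597 and 0.0526). Pold3, an accessory subunit that binds PCNA, was at 65.6, 69.3 and 64.7 CPM in controls and 61.2, 63.6 and 64.5 CPM in knockouts. Its knockouts all lay below its controls but by little (log2 fold change -0.077, 95% interval -0.27 to 0.12, edgeR adjusted p = 0.540). Pold4, the smallest subunit and not a member, was the 1 gene of the wider replication list that rose, from 5.42 ± 1.22 to 8.59 ± 1.02 CPM (log2 fold change 0.66, edgeR adjusted p = 0.0426). Pold4 lost its call without control library 2 or 3 or any 1 knockout library (0.53, 0.60, 0.71, 0.72 and 0.56; adjusted p = 0.0837 to 0.145) and with upper-quartile or total-count scaling (0.63 and 0.59; adjusted p = 0.0617 and 0.0669).

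In polymerase epsilon, the leading-strand enzyme, Pole, its catalytic subunit, was at 117, 191 and 180.1 CPM in controls 1, 2 and 3, against 105, 94.1 and 119.6 CPM in knockouts. Control library 1 lay within the range of the knockouts. Pole fell 1.53-fold (log2 fold change -0.61 with SE 0.179 and, by edgeR, adjusted p = 0.0356), and the call did not hold without control library 2 or 3 or any 1 knockout library (log2 fold changes -0.50, -0.53, -0.60, -0.53 and -0.71; adjusted p = 0.0640 to 0.136). Pole2, the second subunit, had 20.5 ± 2.80 and 21.9 ± 0.633 CPM with overlapping groups (log2 fold change 0.090, 95% interval -0.19 to 0.37). It shares 245 of its 2881 exon bases with Gm49384 on the same strand, where strand does not separate reads of the shared bases.

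**Figure D3:**
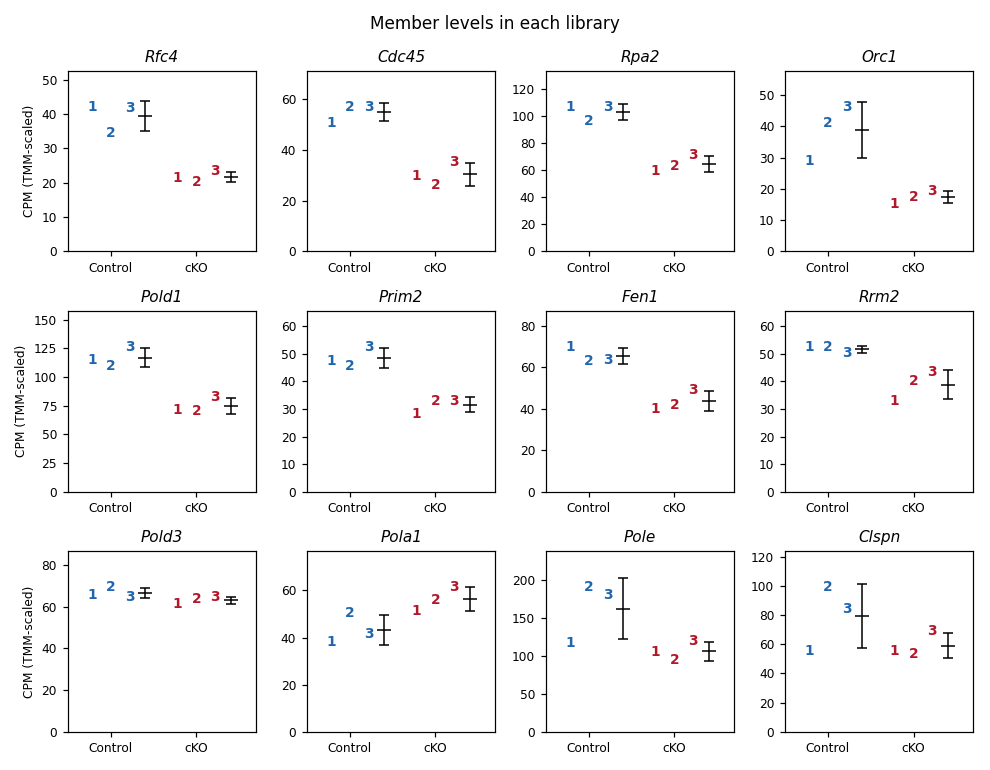
CPM in each library for 12 members (y axes, each from 0): digits are library numbers, controls in blue and knockouts in red, with the mean and SD as black bars. The first 7 panels are the members with the smallest p, whose groups are apart; in Pole and Clspn control library 1 lies among the knockouts, and in Pola1 the knockouts lie above the controls.

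RPA coats single-stranded DNA as a trimer, and 2 of its 3 genes fell. Rpa2, which encodes the subunit that checkpoint kinases phosphorylate, was at 107, 96.1 and 106 CPM in controls and at 59.5, 63.1 and 70.9 CPM in knockouts. It fell 1.60-fold with its groups far apart (log2 fold change -0.68 with SE 0.101 and, by edgeR, adjusted p = 0.00287). Rpa1, the large DNA-binding subunit, fell from 145 ± 8.68 to 115 ± 6.05 CPM (log2 fold change -0.33, edgeR adjusted p = 0.0300), and lost its call without control library 3 or any 1 knockout library (-0.37, -0.29, -0.33 and -0.37; adjusted p = 0.0641 to 0.138). Rpa3, the smallest subunit, had overlapping groups at 15.7, 10.4 and 11.7 CPM in controls and 10.1, 12.9 and 13.5 CPM in knockouts. Its log2 fold change of -0.053 was 0.17 with the length trend removed, 0.11 without control library 1 and 0.068 without knockout library 1.

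In nucleotide supply 1 of 3 members fell. Ribonucleotide reductase, which makes deoxynucleotides, is built from RRM1 with RRM2, of which RRM2 is the subunit that accumulates in S phase. Rrm2 was at 52.4, 52.4 and 50.2 CPM in controls and at 33.0, 40.0 and 43.4 CPM in knockouts. The controls were close together and the knockouts all lower, and Rrm2 fell 1.33-fold (log2 fold change -0.41, edgeR adjusted p = 0.0280). That call did not hold without control library 3 or knockout library 1 or 2 (-0.43, -0.31 and -0.43; adjusted p = 0.0769, 0.114 and 0.0928). Rrm1 had overlapping groups at 265 ± 22.6 and 246 ± 9.86 CPM (95% interval of the log2 fold change -0.33 to 0.11). Tyms, which encodes thymidylate synthase, was at 45.5, 30.3 and 33.4 CPM in controls and 31.9, 38.5 and 45.6 CPM in knockouts. Its groups covered nearly the same range, and its log2 fold change of 0.086 turned to -0.041 without control library 2 and to -0.047 without knockout library 3.

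Both genes that finish Okazaki fragments fell. Fen1, the flap endonuclease, was at 69.8, 63.2 and 63.3 CPM in controls and at 39.8, 42.0 and 49.0 CPM in knockouts. It fell 1.50-fold with no overlap (log2 fold change -0.59 with SE 0.106 and, by edgeR, adjusted p = 0.00600). Lig1, which seals the nicks, was at 164, 169 and 168 CPM in controls and at 119, 116 and 137 CPM in knockouts. The groups were apart and Lig1 fell 1.35-fold (log2 fold change -0.43, edgeR adjusted p = 0.0136), a call that did not hold without control library 3 or knockout library 1 or 2 (-0.43, -0.40 and -0.38; adjusted p = 0.0554, 0.0754 and 0.0859). Fen1 shares 5.37% of its exon bases with Tmem258 and Lig1 5.79% with Zswim9, each on the other strand.

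Of the fork protection genes, Tipin fell and its partner Timeless did not pass. Tipin was at 68.0, 58.6 and 75.8 CPM in controls and at 44.7, 43.6 and 52.5 CPM in knockouts (log2 fold change -0.52, edgeR adjusted p = 0.0161). Its groups were apart, and the call did not hold without control library 3 or knockout library 1 or 2 (-0.43, -0.49 and -0.47; adjusted p = 0.0675 to 0.0860) or with the length trend removed (-0.34, adjusted p = 0.0600). Timeless had 61.4 ± 5.98 and 56.0 ± 5.20 CPM (edgeR adjusted p = 0.412), and passed with the length trend removed (-0.26, adjusted p = 0.0339). Clspn, which encodes the checkpoint adaptor claspin, was at 55.5, 99.1 and 84.0 CPM in controls and 55.2, 53.3 and 68.7 CPM in knockouts, so that control library 1 lay among the knockouts. Its log2 fold change of -0.43 did not pass (edgeR adjusted p = 0.141); leaving out control library 1 gave -0.66 (adjusted p = 0.00186), and Clspn also passed on all 6 libraries with the length trend removed (-0.53, adjusted p = 0.0247).

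No gene of histone supply and chromatin assembly passed with edgeR, while 2 of the 3, Slbp and Chaf1a, were lower at an unadjusted p under 0.05. Slbp also passed with DESeq2 (-0.27, adjusted p = 0.0434), and limma-voom called none. Slbp, whose product binds the stem-loop of histone messenger RNAs, was at 169, 157 and 157 CPM in controls and 124, 135 and 146 CPM in knockouts. Its groups were apart, with a log2 fold change of -0.25 (95% interval -0.47 to -0.039, edgeR adjusted p = 0.0805), and Slbp met the threshold without control library 1 (-0.24, adjusted p = 0.0425) and with total-count scaling (-0.32, adjusted p = 0.0376). Chaf1a, the large subunit of the histone chaperone at the fork, was at 59.0, 75.7 and 69.5 CPM in controls and 53.5, 53.9 and 62.3 CPM in knockouts (edgeR adjusted p = 0.126). Leaving out control library 1 gave -0.38 (adjusted p = 0.00867), and removing the length trend gave -0.46 from -0.27 (adjusted p = 0.00215). Chaf1a shares 52.5% of its exon bases with Ubxn6 on the other strand, so its level is uncertain. Chaf1b had 28.9 ± 5.65 and 30.2 ± 3.55 CPM, and its log2 fold change of 0.059 was -0.063 without control library 2 and -0.038 without knockout library 3.

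Ratios of 2 genes within a library do not depend on how libraries are scaled to each other, and 9 pairs were compared. With 3 libraries against 3, the smallest p of the exact permutation test is 0.1, so no pair could pass a threshold of 0.05. In 5 pairs the groups did not overlap (exact 2-sided permutation p = 0.1, adjusted p = 0.18 over 9 pairs), by CPM. The share over other gene pairs was not computed. Among single tested genes, 22.1% had the knockouts wholly below the controls and 22.5% wholly above. The log2 ratio of Rrm2 to Rrm1 differed by -0.32, knockout minus control, and that of Rrm2 to Rrm2b, its p53-inducible counterpart, by -0.71. Rpa2 against Rpa1 differed by -0.35 and Prim1 against Pola1 by -0.57, while Pold3 against Pold1 was higher in the knockouts by 0.57. In the other 4 pairs the groups overlapped. The differences were 0.69 for Pole2 against Pole and 0.71 for Orc6 against Orc1 (exact permutation p = 0.2 each, with control library 1 within the range of the knockouts), and 0.33 for Chaf1b against Chaf1a and -0.11 for Gins2 against Gins1 (exact permutation p = 0.4 each). With FPKM in place of CPM, 2 pairs differed from this in whether their groups overlapped. The log2 ratio of Rrm2 to Rrm1 was then at -1.95, -1.75 and -1.76 in controls and -2.06, -1.92 and -1.79 in knockouts, with overlapping groups and a difference of -0.10 (exact permutation p = 0.3). Pole2 to Pole was at -1.46, -1.56 and -1.76 in controls and -0.61, -0.46 and -0.73 in knockouts, fully apart, with a difference of 0.99 (exact permutation p = 0.1). In the other 7 pairs the groups were apart or overlapping as by CPM.

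**Figure D4:**
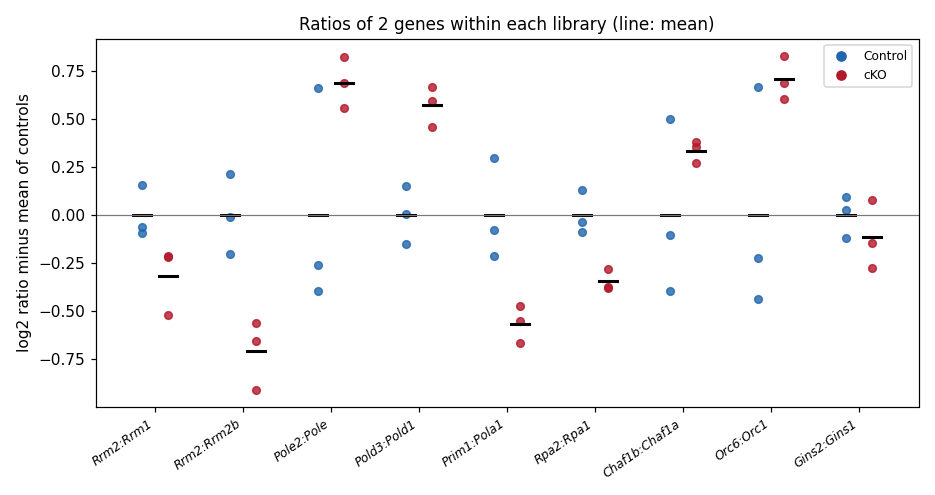
Log2 ratio of 2 genes in each library minus the mean of the controls (y axis) for 9 pairs by CPM (x axis), with the group mean as a line. In Rrm2:Rrm1, Rrm2:Rrm2b, Prim1:Pola1 and Rpa2:Rpa1 the knockouts lie below every control, and in Pold3:Pold1 above; control 1 stands apart from the other controls in Pole2:Pole and Orc6:Orc1.

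Levels can be compared between genes only per transcript length, with the FPKM values that the authors deposited. In controls the most abundant members by FPKM were Slbp at 88.5 ± 5.31, Rrm1 at 87.5 ± 7.98 and Tipin at 82.4 ± 17.7, which do not differ beyond their spread. The lowest were Gins3 at 5.98 ± 0.252, Dscc1 at 7.76 ± 1.22 and Pola1 at 8.28 ± 1.08 FPKM. Subunits of 1 complex were not level: Rfc1 at 52.7 ± 2.65 FPKM stood above Rfc2 at 12.8 ± 1.29, and Gins4 at 31.7 ± 4.46 above Gins3. In knockouts the same 3 members led, with Slbp at 70.8 ± 5.71, Rrm1 at 67.5 ± 2.94 and Tipin at 52.4 ± 4.03 FPKM, and Dscc1 had the lowest mean, with 5.63, 4.77 and 4.59 FPKM in the 3 libraries. Orc1, at 4.99, 5.63 and 6.29 FPKM, and Gins3, at 5.70, 4.77 and 7.21 FPKM, overlapped it. FPKM and counts did not move alike for every gene. Pole was at 39.4, 32.3 and 39.7 FPKM in controls and 19.1, 16.8 and 21.4 FPKM in knockouts, so that control library 1 stood with the other controls in FPKM and with the knockouts in CPM. Rfc1 had separate groups in FPKM, at 50.2, 52.5 and 55.5 in controls and 31.6, 31.5 and 40.1 in knockouts, and overlapping groups in CPM. So did Rrm1, at 96.7, 82.7 and 83.0 FPKM in controls and 64.2, 68.4 and 69.8 FPKM in knockouts. Pold3 and Pola1 went the other way, with groups apart in CPM and overlapping in FPKM. The tests here rest on counts.

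**Figure D5:**
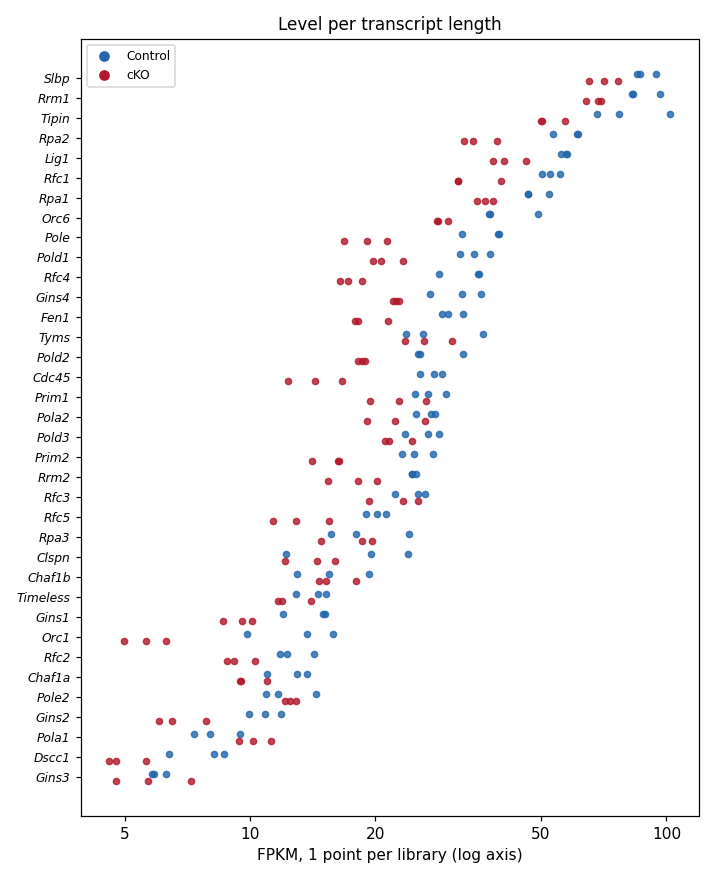
FPKM of each of the 36 genes on a log axis (x), 1 point per library, ordered by the control mean. Control means run from 5.98 for Gins3 to 88.5 for Slbp, and for Pola1 most knockout points lie to the right of the controls.

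The rest of the replication genes were read from a list of 58 other genes, of which 57 were tested. Of these 20 fell and 1 rose, with a median log2 fold change of -0.24, beside 13.9% and 11.1% of all tested genes. Among origin licensing genes 5 of 9 fell, with a list median of -0.49. Gmnn, which encodes the licensing inhibitor geminin, fell from 36.1 ± 2.19 to 21.6 ± 2.36 CPM (edgeR adjusted p = 0.00328), and Mcm7, of the helicase ring, from 215 ± 1.87 to 152 ± 14.0 CPM (adjusted p = 0.00697), a call lost without knockout library 2 (-0.48, adjusted p = 0.0534). Of 9 firing factors and kinase genes 4 fell, among them Recql4, a helicase gene, at -0.92 and Dbf4, the regulatory subunit of the CDC7 kinase, at -0.62 (edgeR adjusted p = 0.00281 and 0.00914). Chtf18, the large subunit of the loader that contains DSCC1, fell from 69.8 ± 4.92 to 32.5 ± 2.98 CPM (log2 fold change -1.10, edgeR adjusted p = 0.000425), beside -0.58 for Dscc1. Pcna, the clamp itself, had 154 ± 14.8 and 129 ± 13.2 CPM and did not pass (-0.26, edgeR adjusted p = 0.122; -0.34 and 0.0397 without control library 2). Pole3, a histone-fold subunit of polymerase epsilon, did not pass (-0.24, edgeR adjusted p = 0.201). Among 6 genes of Okazaki fragments and topology Rnaseh2b, a subunit of an enzyme that removes RNA from DNA, was the 1 that fell (-0.64, adjusted p = 0.00759).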

How the data were processed

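Members, gene lists and gene pairs were chosen with earlier results of these data known. The authors deposited 1 table that gives, for each gene in each library, a count and FPKM. The deposited counts are whole numbers and were treated as rounded estimated counts, because in every library some genes (3 to 21) with FPKM above 0 were counted 0. RSEM and StringTie 1.3.1 were used, per the submitters' processing notes; aligner, build, annotation and strand use: not given in the sources used here. The deposited FPKM values, which divide by transcript length and library size, served to compare levels between genes, to derive the transcript length for 1 alternative, and in 1 alternative for ratios. A symbol was found for 22219 of 22274 Ensembl IDs; Chtf8 matched 2 IDs and was left out.

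Counts were filtered with filterByExpr (minimum count of 10, 14424 genes, leaving out 0.063% of counts), scaled by TMM and tested with edgeR 4.0.16 (R 4.3.3), genotype as the only term, 3 libraries against 3; p-values were adjusted by Benjamini-Hochberg over all tested genes at a threshold of 0.05. The procedure was also run on simulated counts in which few genes changed, equally up and down. That setting differs from these data, so the run does not measure the error rate here. Alternatives were DESeq2 1.42.0, voom of limma 3.58.1, other scalings and filters, removal of a trend on transcript length (lowess, span 0.3), a replicate block, and each library left out in turn. The rule named all members, Dtl, the 2 genes with the smallest p in each group of other replication genes, and the 2 markers with the highest CPM in a list plus Ddx4 and Mki67; those that no result turned on are not printed. Exon overlap is from GENCODE M21 and promoter windows are from RefSeq on GRCm38.p6.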

Additional observations from a re-analysis of the deposited data

How the results depend on the processing

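Outside pan-germ-cell scaling, all 19 members that fell kept their direction in every alternative run, and 7 kept their call in all of them. Leaving out 1 library at a time gave 7 to 24 members lower and 0 to 1 higher, 903 to 2863 of all genes lower and 452 to 2392 higher, and 12 to 28 other replication genes lower and 0 to 2 higher; Dtl ran from -0.51 to -0.025. Leave-one-out log2 fold changes that crossed 0 were those of Rfc3 -0.14 to 0.060, Rpa3 -0.18 to 0.11, Tyms -0.047 to 0.25 and Chaf1b -0.063 to 0.20. Removing the length trend turned Rfc3 to 0.074 and Rpa3 to 0.17 and gave 2 other replication genes higher; total-count scaling turned Chaf1b to -0.0091. Upper-quartile scaling and total-count scaling gave 0 other replication genes higher. Deviations of same-numbered libraries from their group means had correlations of -0.07, -0.08 and 0.07. Those of differently numbered libraries ran from -0.22 to 0.22. With 3 libraries a group, these values cannot decide whether the numbers pair the libraries. With the replicate block 15 members were lower (Gins1, Orc6, Dscc1 and Rpa1 were lost). The same fit gave 1574 of all genes lower and 1248 higher, and 19 other replication genes lower and 0 higher.

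Pan-germ-cell scaling gave 95 of all genes lower and 13393 higher, 0 members lower and 35 higher, and 0 other replication genes lower and 55 higher. Log2 fold changes that turned positive under it were, among members, Cdc45 0.62, Gins1 0.96, Gins2 0.84, Gins3 1.38, Gins4 1.02, Orc1 0.35, Orc6 1.01, Rfc1 1.21, Rfc2 1.10, Rfc3 1.41, Rfc4 0.59, Rfc5 0.91, Dscc1 0.88, Pola2 1.31, Prim1 1.27, Prim2 0.85, Pold1 0.82, Pold2 0.93, Pold3 1.40, Pole 0.88, Rpa1 1.13, Rpa2 0.78, Rpa3 1.38, Rrm1 1.37, Rrm2 1.05, Fen1 0.87, Lig1 1.03, Tipin 0.94, Timeless 1.35, Clspn 1.07, Slbp 1.20 and Chaf1a 1.21; Dtl 1.18; and, among other replication genes, Recql4 0.57, Dbf4 0.86, Orc2 1.29, Orc3 1.37, Chtf18 0.37, Pcna 1.20, Pole3 1.22, Ctps 0.75, Shmt1 0.78, Rnaseh2b 0.81, Asf1b 0.43, Hat1 0.83, Gmnn 0.72 and Mcm7 0.96. It moved the median of all genes to 1.50. For the other changes above the cause was not tested. Fits that leave 1 library out also rest on fewer libraries, and the part of that was not tested. Members rest on 98 to 5118 counts a library, and Dscc1, Gins1, Gins3 and Rpa3 have the lowest counts. With 3 libraries a group, exact tests of ratios cannot go below p = 0.1.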

Other observations

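Among 13 further genes of nucleotide supply 6 fell and 7 did not pass (edgeR, adjusted p under 0.05, beside 13.9% of all tested genes that were lower). Ctps, which makes cytidine triphosphate, fell from 161 ± 11.6 to 97.2 ± 7.67 CPM (log2 fold change -0.73, edgeR adjusted p = 0.00228), and Shmt1, of one-carbon metabolism, from 95.2 ± 6.53 to 59.3 ± 4.51 CPM (-0.68, adjusted p = 0.00264). Both kept their call in each of the 6 fits that left out 1 library. The other 4 that fell, named after their values were seen, were Impdh2, Dck, Dctd and Cad. Tk1, an S-phase gene also named after its values were seen, had a log2 fold change of 0.0054 (edgeR adjusted p = 0.986).

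Of 10 further genes of histone supply 3 fell: Asf1b, a histone chaperone gene, from 48.7 ± 4.10 to 23.9 ± 4.04 CPM (-1.03, edgeR adjusted p = 0.00170), Hat1, a histone acetyltransferase gene, from 134 ± 1.99 to 86.2 ± 8.53 CPM (-0.63, adjusted p = 0.00333), and Nasp (-0.63, adjusted p = 0.00421), the last named after its value was seen. Asf1b and Hat1 kept their call in each fit that left out 1 library. Asf1a, the paralog of Asf1b and also named after its value was seen, had 39.0 ± 5.84 and 37.1 ± 2.47 CPM (-0.070, edgeR adjusted p = 0.704). Whether Asf1b and Asf1a differ in their response was not tested. With pan-germ-cell scaling Ctps, Shmt1, Asf1b and Hat1 were at 0.75, 0.78, 0.43 and 0.83.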
